A study of Mus musculus with 25 samples.

Results

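Kdm4d mRNA was injected into mouse embryos made by somatic cell nuclear transfer (SCNT), and their RNA at the two-cell stage was compared with that of SCNT embryos that received no mRNA. The comparison used 4 of the 25 libraries of the series, namely 2 of SCNT-Kdm4d embryos and 2 of SCNT-cont embryos, chosen by their labels. It covered the gene rows of the count table and left out the rows of transposable element copies. Each library held a pool of 5 to 10 embryos collected 28 to 29 h after activation. All 4 SCNT pools had BDF1 cumulus cell nuclei in BDF1 oocytes, so the embryos were female, and they were enucleated in cytochalasin B at 7.5 µg/mL and activated with 3 mM strontium chloride and cytochalasin B at 5 µg/mL. The SCNT-Kdm4d zygotes were injected 5 to 6 h after activation with 10 pL of mRNA at 1500 ng/µL. The controls were not injected, so the effect of injecting an mRNA and that of the Kdm4d protein cannot be told apart. Levels in fertilized embryos came from 4 libraries of in vitro fertilized (IVF) embryos of C57BL/6N females aged 4 to 20 weeks and DBA2 sperm. These pools held both sexes and were collected at the same hours, counted from insemination, where SCNT embryos were timed from activation. The ages of the females are those of the labels, and the methods of the study give a narrower range for IVF. A further pair of untreated SCNT libraries, SCNT-L-cont, was made with latrunculin A, which the protocol used where the others had cytochalasin B.

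KDM4D is a histone demethylase that removes methyl groups from di- and trimethylated lysine 9 of histone H3 (H3K9me2 and H3K9me3), marks of silent heterochromatin. In the mouse the embryo's own genome is switched on mainly at the two-cell stage, when a characteristic set of genes such as the Zscan4 cluster, the Obox homeobox genes and the Usp17-like deubiquitinases is transcribed for a short time. In SCNT embryos H3K9me3 carried over with the donor nucleus is known to hinder the activation of many genes at this stage, and injected Kdm4d mRNA has been used to remove it.

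The injected mRNA itself showed the largest fold change. Kdm4d, on chr9, stood at 18542 and 12539.8 CPM (counts scaled to a common library size with TMM factors) in the 2 SCNT-Kdm4d libraries and at 2.52 and 0.718 CPM in the 2 controls. It took 1.69% and 1.13% of all counts in the injected libraries. The log2 fold change was 13.27 ± 0.59 (SE, adjusted p = 1.93e-14, edgeR quasi-likelihood test with Benjamini-Hochberg adjustment over the genes tested). The 4 IVF libraries held 1.36 to 4.65 CPM, and the control and injected libraries did not overlap. Of the 11 H3K9 demethylase genes tested, Kdm4d alone had an adjusted p under 0.05 and a fold change over 2. The other members included Kdm4a, at 29.2 and 39.9 CPM in controls and 68.4 and 58.7 CPM with Kdm4d mRNA (adjusted p = 0.0759), and Kdm3a, whose log2 fold change was 0.37.

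A gene is called raised or lowered here at an adjusted p under 0.05 and a fold change over 2. Nothing in the labels says whether the 2 pools of a group came from separate sessions, so the p-values measure the spread between pools. Of 25794 autosomal genes tested, 543 (2.11%) were raised and 268 (1.04%) were lowered by this rule, and the median log2 fold change of all genes tested was -0.04. The control and injected libraries did not overlap for any of the 543 raised genes or for 266 of the 268 lowered genes. A call with 2 pools a group leaves little room for overlap, and this share was not computed over all genes tested. It is therefore no separate evidence of a difference. The raised genes were mostly abundant, with a median level of 57.1 CPM over the series, against 8.25 CPM for the lowered and 2.06 CPM for all genes tested. The median log2 fold change was 1.32 for the raised genes and -1.94 for the lowered ones. RLE scaling moved the median of all genes tested to -0.116 and called 412 genes raised and 306 lowered, a share of 57.4% raised. DESeq2 called 542 genes raised and 605 lowered, so the share of raised genes among all calls was 66.9% with edgeR and 47.2% with DESeq2.

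The number of calls depended on single libraries. SCNT-cont replicate 1 correlated with SCNT-cont replicate 2 at r = 0.97 over log2(CPM + 1), while the injected libraries correlated with each other at 0.983. With the 2 SCNT-L-cont libraries, SCNT-cont replicate 1 correlated at 0.969 and 0.965, and SCNT-cont replicate 2 at 0.976 and 0.96. These correlations among untreated SCNT libraries do not set either control library apart. With the injected libraries, SCNT-cont replicate 1 correlated at 0.959 and 0.958, and SCNT-cont replicate 2 at 0.968 and 0.969. With the IVF libraries, replicate 1 correlated at 0.933 to 0.939 and replicate 2 at 0.943. SCNT-cont replicate 1 was thus farther from both groups, and the part of this in the calls was not tested. Without SCNT-cont replicate 1, 98 genes were raised and 43 lowered, and without SCNT-cont replicate 2, 912 and 280. Without SCNT-Kdm4d replicate 1 the counts were 384 and 76, and without SCNT-Kdm4d replicate 2 they were 212 and 50. Without SCNT-cont replicate 1 the log2 fold change stayed above 0 for all 543 raised genes and below 0 for 267 of the 268 lowered. Groups of 2 libraries that do not overlap nearly fix this outcome, so it is no separate support for the direction. Most of these genes lost the call. The controls also carried more mitochondrial RNA, at 10.2% and 8.28% of counts, against 5.09% and 4.41% in the injected libraries and 4.65% to 5.78% in IVF. The part of this difference in the results was not tested. Calls without SCNT-cont replicate 1 are therefore given for many of the genes that follow.

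**Figure D1:**
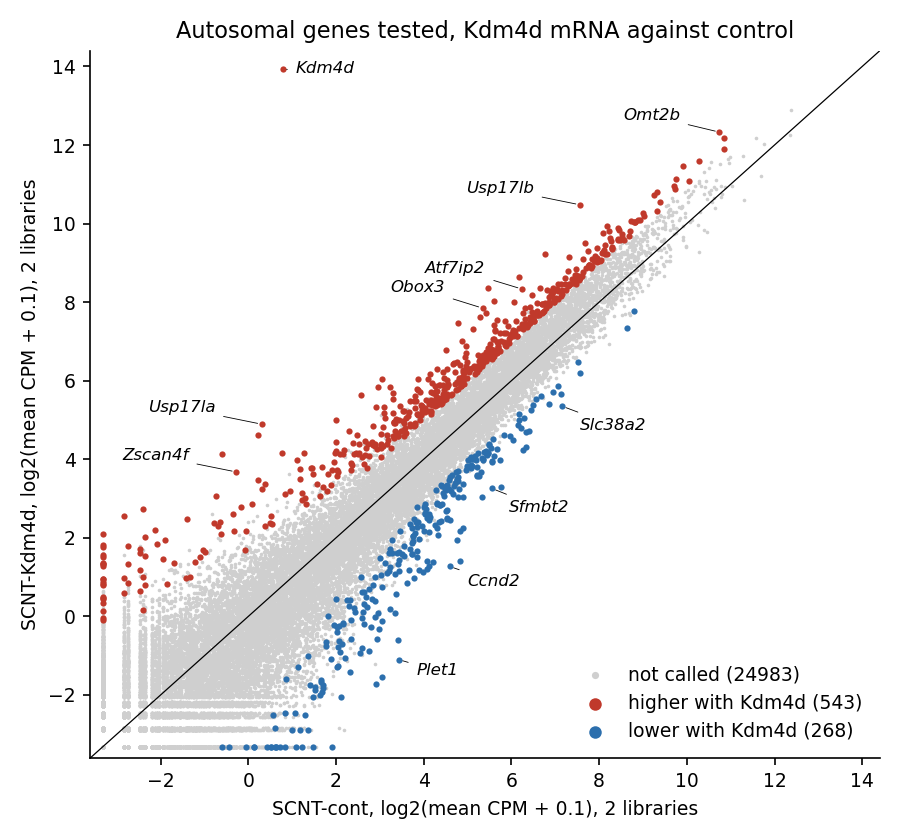
Mean level of each autosomal gene tested in SCNT-cont embryos (x axis) and SCNT-Kdm4d embryos (y axis), both as log2(mean CPM + 0.1) of 2 libraries, with raised genes in red, lowered genes in blue and the diagonal marking equal levels. The 543 raised genes reach up to the most abundant transcripts of the embryo, whereas the 268 lowered genes lie mostly at middle and low levels.

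**Figure D2:**
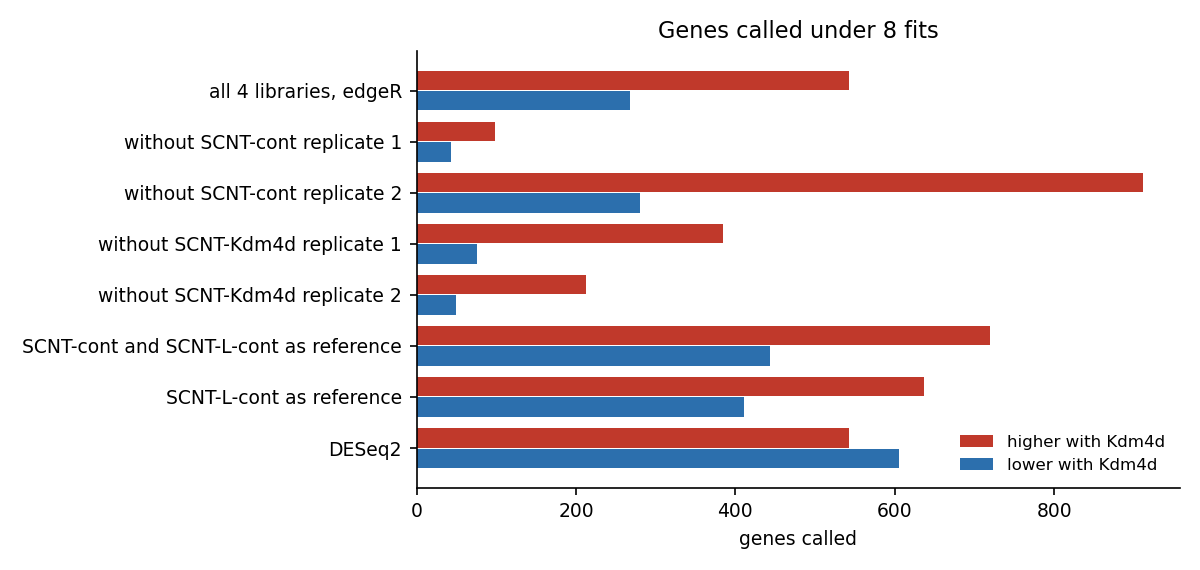
Number of genes called raised (red) and lowered (blue) with Kdm4d mRNA in 8 fits: all 4 libraries, each of the 4 left out, 2 other sets of control libraries, and DESeq2. Leaving out SCNT-cont replicate 1 leaves 98 and 43 calls, and leaving out SCNT-cont replicate 2 gives 912 and 280.

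A core of 81 genes kept the call whichever of the 4 libraries was left out, 72 of them raised and 9 lowered (this criterion was set after the data were seen). It held Zscan4a, Zscan4d, Zscan4f and Zscan4-ps1, Obox3 and Obox8 with the pseudogenes Obox3-ps1, Obox3-ps5 and Obox3-ps6, Usp17la, 6 zinc finger genes of the Zfp series, Atf7ip2, and the abundant egg transcripts Omt2a, Omt2b and Zp3. The 9 lowered genes were Col27a1, Rhoq, Elovl4, Flrt3, Lrrc8e, P2ry1, Socs2, Fam102b and Gsta4. In IVF embryos 54 of the 72 were also higher than in the SCNT-L-cont embryos and 0 were lower, against 6.48% and 8.83% of all genes tested. Of the 9 lowered genes 4 were lower in IVF, 0 were higher and the rest were not called. Among genes with a mean of at least 1 CPM, 9.51% were higher in IVF and 12.5% lower. Of the lowered genes, Col27a1, Lrrc8e and Gsta4 stayed above every IVF library in the injected embryos. Rhoq, Elovl4, Flrt3, P2ry1, Socs2 and Fam102b lay below every IVF library. Socs2 was at 31 and 24.9 CPM in controls, 8.63 and 9.96 CPM with Kdm4d mRNA and 50.7 to 60.3 CPM in IVF.

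The Zscan4 cluster, which encodes zinc finger proteins expressed at the two-cell stage and acting on telomeres, was raised in most of its members. Of its 6 tested members 4 (66.7%) were raised and 0 were lowered, against 2.11% and 1.04% of all genes tested. The median log2 fold change was 3.01. Zscan4a, annotated as an unprocessed pseudogene, was at 6.29 and 5.34 CPM in controls, 42.8 and 55.8 CPM with Kdm4d mRNA, and 152, 104, 173 and 139 CPM in IVF. Its log2 fold change was 3.09 ± 0.35 (adjusted p = 1.17e-05), and 3.19 without SCNT-cont replicate 1 (adjusted p = 0.00124). Zscan4d was at 7.17 and 9.17 CPM in controls, 67.2 and 63.5 CPM with Kdm4d mRNA, and 157.5 to 203 CPM in IVF. Injected libraries lay above both controls and below every IVF library for both genes. In pooled embryos, fewer embryos or cells with a transcript and less of it per cell cannot be told apart. Zscan4f was at 0.0969 and 1.36 CPM in controls and 14 and 11.4 CPM with Kdm4d mRNA, a log2 fold change of 4.04 ± 0.64 (adjusted p = 0.00051). Zscan4c was at 4.75 and 3.11 CPM in controls and 31.1 and 32.5 CPM with Kdm4d mRNA, and its call was lost without SCNT-cont replicate 1 (log2 fold change 3.34, adjusted p = 0.0955). For Zscan4b and Zscan4e, at 3.47 CPM or less in all 4 libraries compared, the values were 2.93 and 2.27, without a call. Summed over the cluster, the libraries held 18.8 and 20.1 CPM in controls, 160.3 and 167 CPM with Kdm4d mRNA and 335 to 512 CPM in IVF. Against IVF, the injected embryos were lower for Zscan4a by a log2 fold change of -1.52 ± 0.28 (adjusted p = 0.000449), for Zscan4d by -1.45 ± 0.38 (adjusted p = 0.00961) and for Zscan4f by -1.95 ± 0.47 (adjusted p = 0.0052), where 9.31% of all genes tested differed. The members are near-identical copies and only uniquely aligned pairs were counted, so the split of reads among them is uncertain.

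The promoters of Zscan4c, Zscan4d and Zscan4f are shown because all 3 hold TGATT and ATCA separated by any 2 bases, the core of the site known for the two-cell activator DUX. They are from RefSeq on GRCm38.p6, 111 bases around the match (capitals), read in the direction of the gene, which shows the match as its opposite strand.
Zscan4c, chr7:11005581-11005691, plus strand: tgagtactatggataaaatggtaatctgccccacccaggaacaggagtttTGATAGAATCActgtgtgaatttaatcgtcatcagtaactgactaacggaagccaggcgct
Zscan4d, chr7:11166213-11166323, minus strand: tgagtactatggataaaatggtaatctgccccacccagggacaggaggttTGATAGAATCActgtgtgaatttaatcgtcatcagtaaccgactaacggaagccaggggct
Zscan4f, chr7:11397774-11397884, plus strand: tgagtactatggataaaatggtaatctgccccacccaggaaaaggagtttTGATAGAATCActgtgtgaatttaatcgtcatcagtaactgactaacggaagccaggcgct

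The match began 114, 125 and 91 bases before the annotated start of transcription, and the 111-base stretches of Zscan4c and Zscan4f were identical at 110 bases. RefSeq promoter windows, 250 bases before to 50 after the start, were matched for 347 of the 543 raised genes, 181 of the 268 lowered and 14470 of all genes tested. These are 63.9%, 67.5% and 56.1% of each set, and because so many genes have no window the shares are given without a test. Searched on both strands, this core stood in 4 raised windows (1.15%), in 0 lowered windows and in 25 of all (0.173%). The 4 were these 3 and Cryzl2. A match is a description of the letters, not evidence of a bound factor.

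The Obox genes, homeobox factors of the oocyte and two-cell embryo, divided into members that rose and members that did not. Of 7 tested, Obox3, Obox6 and Obox8 (42.9%) were raised and 0 were lowered, against 2.11% and 1.04% of all genes tested. The median log2 fold change was 0.51. Obox3 was at 47.3 and 33.7 CPM in controls, 230.3 and 230.1 CPM with Kdm4d mRNA, and 300.1 to 363 CPM in IVF. Its log2 fold change was 2.51 ± 0.28 (adjusted p = 1.17e-05), and 2.76 without SCNT-cont replicate 1 (adjusted p = 0.000726). Obox8 was at 95.2 and 122 CPM in controls, 533 and 660.1 CPM with Kdm4d mRNA, and 415 to 505 CPM in IVF, so that the injected libraries lay above all other libraries named. Obox6 was at 402 and 622 CPM in controls, 1148 and 1332 CPM with Kdm4d mRNA, and 1057 to 1264 CPM in IVF. Its call was lost without SCNT-cont replicate 1, with a log2 fold change of 0.98 (adjusted p = 0.161). Against IVF the log2 fold changes were -0.52 ± 0.24 for Obox3, 0.39 ± 0.22 for Obox8 and 0.09 ± 0.21 for Obox6, none of them called. Obox7, Obox2, Obox1 and Obox5 had log2 fold changes of -0.47, -0.34, -0.19 and 0.51 and missed the call.

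The promoter of Obox3 held GGATTA (capitals), the core letters bound by homeodomains of the Obox and Otx type.
Obox3, chr7:15639890-15639995, minus strand: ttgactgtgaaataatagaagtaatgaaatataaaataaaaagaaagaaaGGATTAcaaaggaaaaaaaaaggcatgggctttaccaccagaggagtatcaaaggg

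These 6 letters are common. They stood, on either strand, in 7.78% of the raised windows, 4.97% of the lowered and 6.43% of all.

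**Figure D3:**
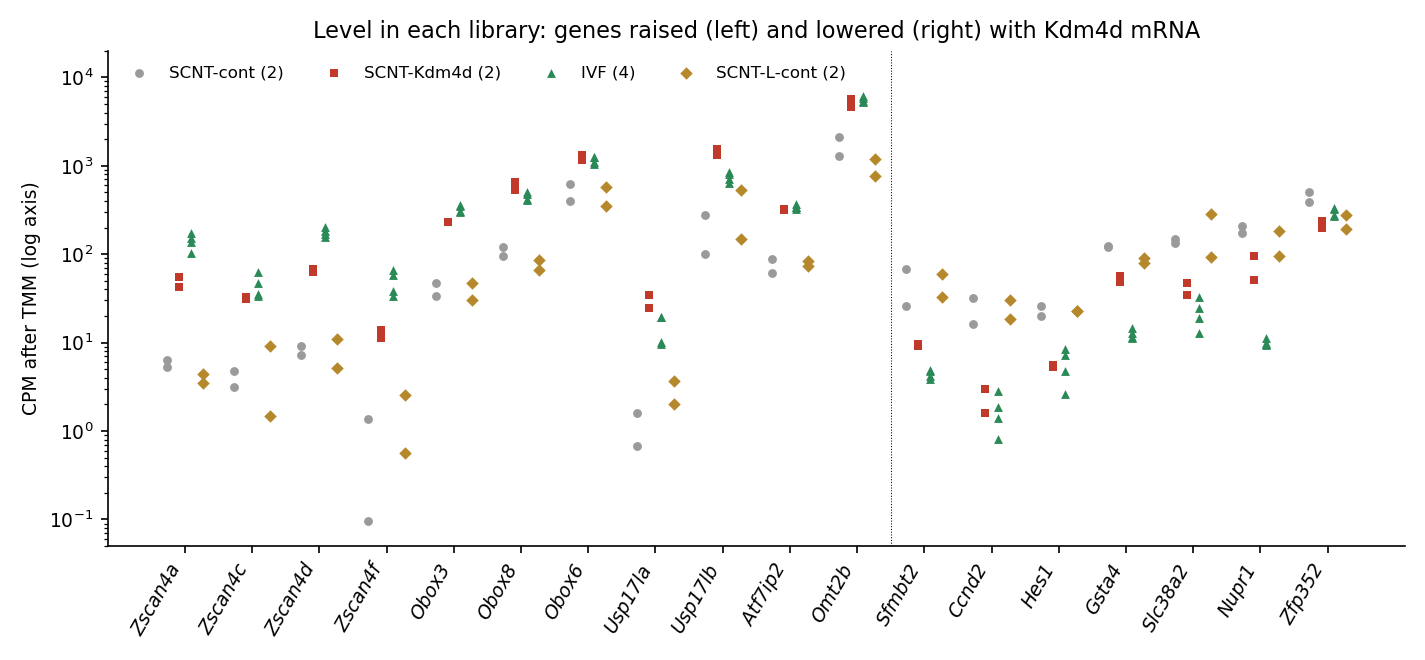
CPM of 18 genes in each library (log axis), with SCNT-cont in grey circles, SCNT-Kdm4d in red squares, IVF in green triangles and SCNT-L-cont in yellow diamonds. For the 11 genes left of the dotted line the red squares lie above both controls, with the Zscan4a and Zscan4d levels still below IVF. For the 7 to its right they lie below both SCNT-cont libraries, and for Gsta4 and Nupr1 they remain above IVF.

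Of 5 Usp17-like genes tested, which encode deubiquitinating enzymes, Usp17la, Usp17lb and Usp17le (60%) were raised and 0 were lowered. The shares of all genes tested were 2.11% and 1.04%. The median log2 fold change of the 5 was 2.92. Usp17la (chr7:104857009-104862667) was at 0.678 and 1.59 CPM in controls, 34.7 and 24.5 CPM with Kdm4d mRNA, and 9.55 to 19.7 CPM in IVF. The log2 fold change was 4.67 ± 0.63 (adjusted p = 0.000158), and 4.19 without SCNT-cont replicate 1 (adjusted p = 0.0184). Usp17lb, the abundant member, was at 102 and 276 CPM in controls, 1312 and 1542 CPM with Kdm4d mRNA, and 631 to 855 CPM in IVF. For both genes the injected libraries lay above every IVF library. Usp17lb lost its call without SCNT-cont replicate 1 (log2 fold change 2.35, adjusted p = 0.059). Usp17le held 3 reads in both controls together, against 43 and 50 reads in the injected libraries, a ratio of 26.6 with an exact 95% counting interval of 8.82 to 131. It was not called without SCNT-cont replicate 1 (adjusted p = 0.0807), which left Usp17la. Usp17lc and Usp17ld had log2 fold changes of -0.33 and -0.14 and were not called.

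Usp17lb and Usp17la opened a run of 5 consecutive tested genes that were all raised, followed by the long noncoding RNA gene Gm45556 and the olfactory receptor genes Olfr665 and Olfr666, the last ending at position 104895952 of chr7. Olfr666 had 0 reads in both controls and was at 2.58 and 2.31 CPM with Kdm4d mRNA, at least 9.24-fold higher when the controls were set at 3 reads per library. The next genes on that side, Gm45272 and Olfr667, had log2 fold changes of -0.42 and -1.38 and were not called. Of the 5 genes Usp17la alone kept its call without SCNT-cont replicate 1. Olfr665 was higher in SCNT-L-cont, at 4.29 and 9.22 CPM, than in SCNT-cont, at 0.484 and 0.558 CPM.

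Of 32 other genes known for transcription at the two-cell stage, a list that included the Usp17-like genes, 8 were raised and 1 was lowered. These are 25% and 3.125%, against 2.11% and 1.04% of all genes tested. The median log2 fold change was 0.68. Dppa2 and Dppa4, paired nuclear proteins that prime two-cell genes, were raised. Dppa2 was at 421 and 623 CPM in controls, 1141 and 1201 CPM with Kdm4d mRNA, and 525 to 653 CPM in IVF, a log2 fold change of 1.17 (adjusted p = 0.00995). The injected libraries of Dppa2 lay above all IVF libraries. The lowered gene was Zfp352, at 394 and 500.1 CPM in controls, 199 and 237 CPM with Kdm4d mRNA and 271 to 337 CPM in IVF. Its log2 fold change was -1.04 ± 0.25 (adjusted p = 0.0155). In SCNT-L-cont Zfp352 was at 277 and 194 CPM, and with SCNT-L-cont as the reference 0 genes of this list were lowered. The Tcstv genes did not change by this rule, with Tcstv3 at 101 and 74 CPM in controls and 61.9 and 99.3 CPM with Kdm4d mRNA. With SCNT-cont replicate 1 left out, Usp17la was the single gene of this list that kept a call.

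Transcripts stored in the egg formed part of the most abundant raised genes. Of 57 tested, 6 were raised and 1 lowered, with a median log2 fold change of 0.1. Omt2b was at 1304 and 2119.9 CPM in controls, 5647 and 4641 CPM with Kdm4d mRNA and 5231 to 6079 CPM in IVF, a log2 fold change of 1.59 ± 0.25 (adjusted p = 0.000476). Omt2a behaved alike, at 1724 and 1959.6 CPM in controls and 5003 and 4199 CPM with Kdm4d mRNA, and both kept the call without SCNT-cont replicate 1. Zp3, which encodes a zona pellucida protein, was at 39.9 and 52.1 CPM in controls and 109 and 115 CPM with Kdm4d mRNA. Zar1l rose from 3.1 and 3.75 CPM to 8.95 and 15.6 CPM, below the 31.1 to 41.4 CPM of IVF, and was not called without SCNT-cont replicate 1 (adjusted p = 0.15), where 3 of the 6 raised genes of the list kept their calls. Rgs2, a brake on G protein signalling, was lowered from 65.2 and 66 CPM to 24.6 and 20.5 CPM, where IVF had 23.4 to 30.2 CPM. Its log2 fold change was -1.54 ± 0.29 (adjusted p = 0.00223), and it kept its call without SCNT-cont replicate 1. Defining egg genes such as Nlrp5, Padi6 and Npm2 were expressed in every library, with Nlrp5 at 81 and 112 CPM in controls and 115 and 112 CPM with Kdm4d mRNA.

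Genes of ribosome assembly and protein synthesis had medians above that of all genes, with most members under the 2-fold threshold. Of 56 genes of the nucleolus and ribosome assembly 7 were raised and 0 lowered, 55 had a log2 fold change above 0, and the median was 0.59. Of 42 translation initiation factors 4 were raised and 0 lowered, with a median of 0.58. Of 74 cytosolic ribosomal proteins 3 were raised, with a median of 0.43. Of 63 spliceosome genes 3 were raised, with a median of 0.44, and of 41 proteasome subunits 1, with a median of 0.42. The raised shares of these lists, in order, were 12.5%, 9.52%, 4.05%, 4.76% and 2.44%, where 2.11% of all genes tested were raised. Rrn3, which recruits RNA polymerase I to ribosomal DNA, was at 223 and 275 CPM in controls and 506 and 551 CPM with Kdm4d mRNA, a log2 fold change of 1.09 ± 0.19 (adjusted p = 0.00138). IVF held 298 to 326 CPM, so that the injected embryos were above both. Nop16, a ribosome assembly factor, was at 159.8 and 312 CPM in controls, 458 and 608 CPM with Kdm4d mRNA and 373 to 403 CPM in IVF. Eif2s2, a subunit of the factor that brings the initiator tRNA, was at 621 and 1058 CPM in controls and 2005 and 1980.5 CPM with Kdm4d mRNA, above the 1130.0 to 1276 CPM of IVF.

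The calls in these groups depended on SCNT-cont replicate 1. Without it 0 of the 7 nucleolar genes, 1 of the 4 initiation factors (Eif3j2) and 0 of the ribosomal protein, spliceosome and raised proteasome genes were called, and the medians were 0.46, 0.34, 0.27, 0.3 and 0.14. The proteasome subunit Psma7, not called with all libraries, was then lowered (log2 fold change -1.29). Eif2s2 then had a log2 fold change of 0.9 and Rrn3 one of 0.93. Without SCNT-cont replicate 2 the raised members numbered 16, 13, 7, 11 and 11. With RLE scaling the counts of raised members were 3, 3, 2, 1 and 1, and the medians stayed above 0, at 0.34 to 0.52. The summed level of the nucleolar list was 10295.6 and 14260.6 CPM in the 2 controls, 18853 and 20418.5 CPM with Kdm4d mRNA, and 13410.3 to 14945 CPM in IVF. The ribosomal protein list summed to 12833 and 15810.6 CPM in controls, 19216 and 19789.9 CPM with Kdm4d mRNA, and 11221 to 12042 CPM in IVF, so the injected libraries lay above IVF and the controls.

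Chaperones, which fold other proteins, held a few raised members. Of 36 tested 4 (11.1%) were raised and 0 lowered, against 2.11% and 1.04% of all genes tested. The median log2 fold change was 0.36. Hspa8, the constitutive Hsp70, was at 360.1 and 529.6 CPM in controls and 1029.5 and 1066 CPM with Kdm4d mRNA, against 335 to 400.3 CPM in IVF. Its log2 fold change was 1.24 ± 0.24 (adjusted p = 0.00338). The others were Dnajb1, its co-chaperone, Hsph1 and Cct4, with log2 fold changes of 1.28, 1.15 and 1.08. None of the 4 was called without SCNT-cont replicate 1, where their log2 fold changes were 0.6 to 1.46.

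**Figure D4:**
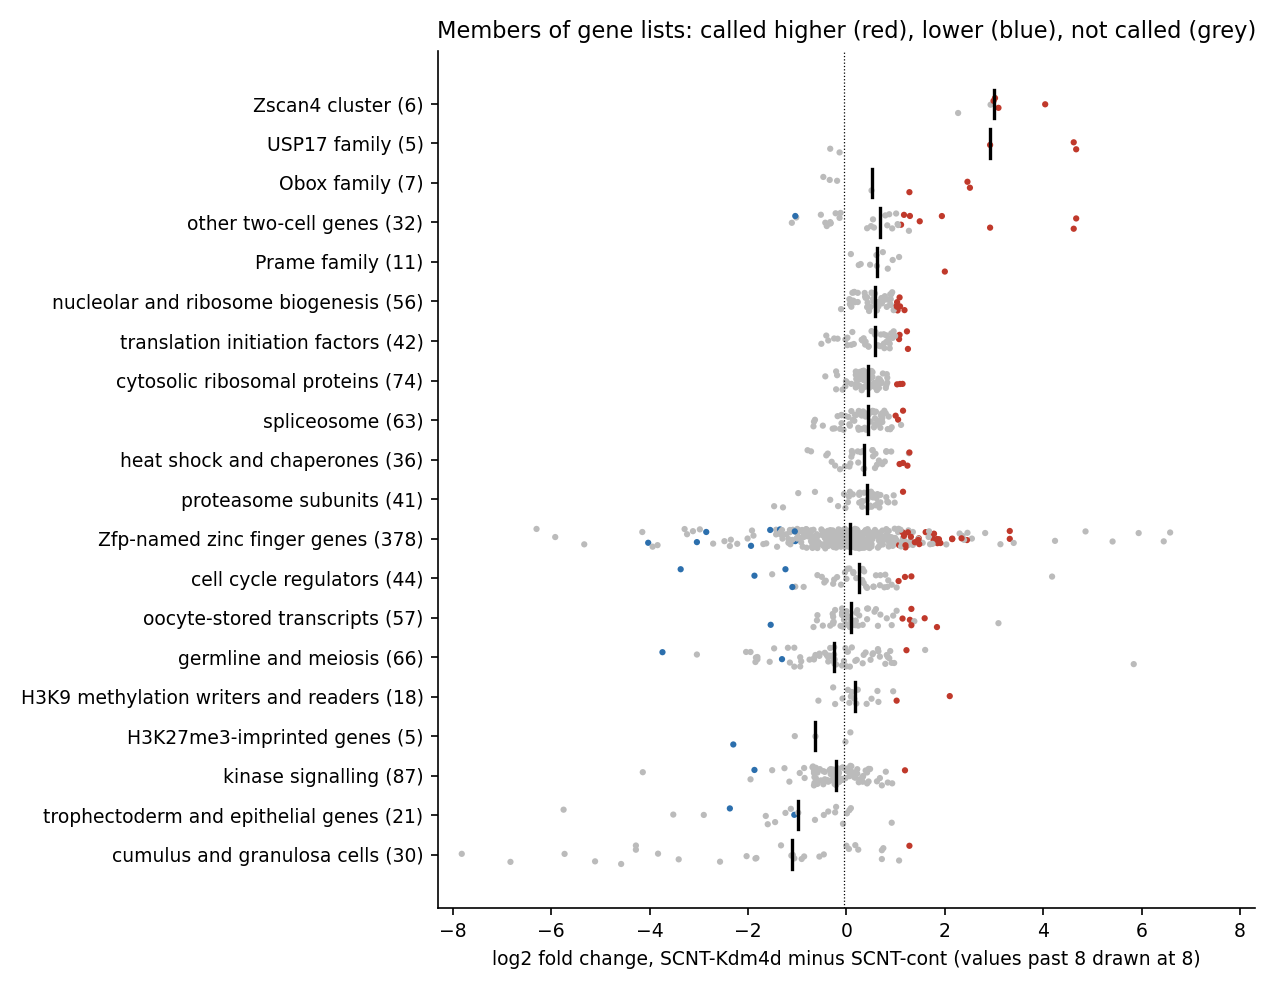
Log2 fold change, SCNT-Kdm4d minus SCNT-cont, of every tested member of 20 gene lists (number tested in brackets), with raised members in red, lowered in blue, members not called in grey, and the list's median as a black bar. The dotted line marks the median of all genes tested, -0.04. The Zscan4 and Usp17-like medians lie farthest right, at 3.01 and 2.92, the nucleolar and translation initiation medians lie at 0.59 and 0.58, and the epithelial and cumulus medians at -0.98 and -1.1.

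The most abundant raised genes also included H3f3b, Kpna2 and Mier3. H3f3b, which encodes the replacement histone H3.3, was at 1403 and 2265 CPM in controls, 3805 and 3869 CPM with Kdm4d mRNA and 3526 to 4029.5 CPM in IVF. Kpna2, a nuclear import receptor, was at 404 and 1526 CPM in controls and 2687 and 2945 CPM with Kdm4d mRNA. For both genes the 2 controls differed widely from each other. Leaving out SCNT-cont replicate 1 gave log2 fold changes of 0.75 for H3f3b, 0.87 for Kpna2 and 0.67 for Mier3, and none was called.

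The largest fold changes among raised genes, after Kdm4d, belonged to genes with almost no reads in the controls. Enpep, an aminopeptidase, Hyal5, a hyaluronidase of sperm, and Ccl11, a chemokine, had 0 reads in both controls. Hyal5 was at 2.9 and 2.6 CPM with Kdm4d mRNA and 3.98 to 5.9 CPM in IVF, at least 10.4-fold higher than controls set at 3 reads per library. Enpep was at least 10.7-fold higher and Ccl11 at least 6.31-fold higher on the same basis. Myo18b, an unconventional myosin, had 1 read in the controls together and 42 and 48 reads with Kdm4d mRNA, a ratio of 77.2 with an exact 95% counting interval of 13.5 to 3083. The pseudogene Sycp1-ps1 had 1 read in each control and 66 and 111 reads with Kdm4d mRNA, and at 5.32 and 7.78 CPM it stayed below the 16.2 to 31.6 CPM of IVF. AC116766.1, AC121552.1, Olfr670 and Defa-ps7 completed the 10 selected by size, and none of the 10 kept its call without SCNT-cont replicate 1.

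Zinc finger genes of the Zfp series, a list set by name alone, changed in both directions. Many genes of the series encode KRAB repressors that bring H3K9 methylation to their targets. Which of the raised and lowered members do so was not examined. Of 378 tested, 26 were raised, or 6.88%, and 8 were lowered, or 2.12%, against 2.11% and 1.04% of all genes tested. The median log2 fold change was 0.07 and lay at 0 with RLE scaling. On chr4 between 145868794 and 147702553 lay 5 raised members, Zfp986, Zfp987, Zfp981, Zfp988 and Zfp534. Zfp981 was at 94.4 and 50.7 CPM in controls, 453 and 338 CPM with Kdm4d mRNA and 54.3 to 85.8 CPM in IVF, a log2 fold change of 2.45 ± 0.34 (adjusted p = 0.000184). Its injected libraries stood well above IVF, which overlapped the controls. Zfp977, on chr7, was at 38.2 and 39 CPM in controls, 188 and 204 CPM with Kdm4d mRNA and 61 to 98.9 CPM in IVF. Zfp599 was at 32.1 and 30.1 CPM in controls and 122 and 112 CPM with Kdm4d mRNA, near the 125 to 159 CPM of IVF. Of the 26 raised genes, 18 were also higher in IVF than in SCNT-L-cont. With that control replicate left out, 7 Zfp genes were raised, 6 of them among the 26, and 0 were lowered. KRAB zinc finger genes lie in clusters of related copies, where reads can be split among neighbours.

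**Figure D5:**
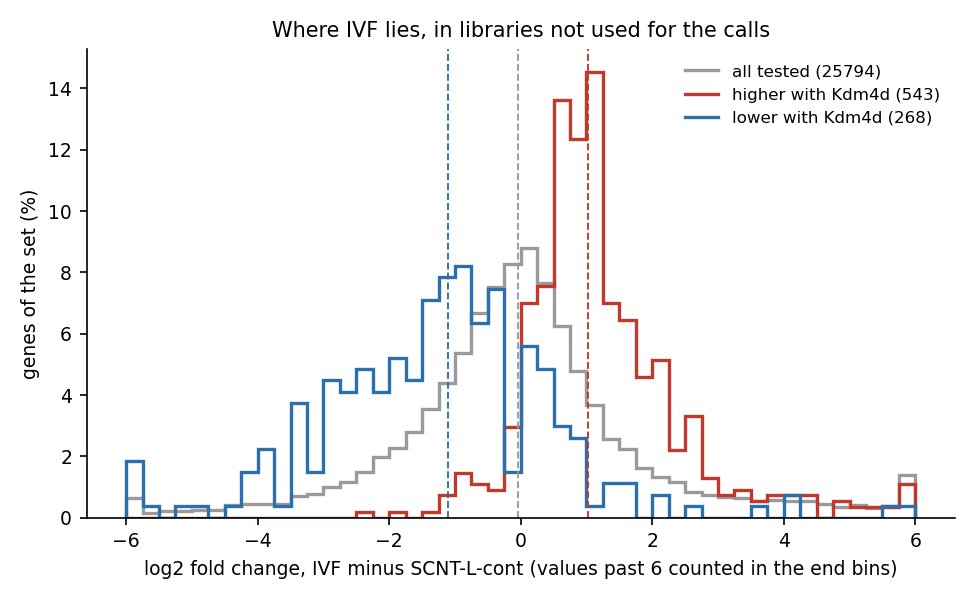
Distribution of the log2 fold change IVF minus SCNT-L-cont, whose libraries are outside the contrast SCNT-Kdm4d minus SCNT-cont, for the 543 raised genes (red), the 268 lowered genes (blue) and all 25794 tested (grey), in percent of each set, with dashed lines at the medians. The raised genes centre at 1.02 and the lowered at -1.11, on either side of all genes at -0.04.

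To place the levels of fertilized embryos without the SCNT-cont and SCNT-Kdm4d libraries, IVF was compared with SCNT-L-cont. These libraries took part in the common fit, and so in its estimate of the spread, but not in the contrast that gave the calls. In that comparison 1671 genes (6.48%) were higher in IVF and 2277 (8.83%) were lower. Of the 543 raised genes, 264 (48.6%) were higher in IVF, 2 were lower and 277 were not called. Of the 268 lowered genes, 126 (47%) were lower in IVF, 7 were higher and 135 were not called. The median log2 fold change was 1.02 for the raised genes, with quartiles of 0.55 and 1.69, and -1.11 for the lowered, with quartiles of -2.3 and -0.36. Since called genes are more abundant than most, the same shares among the 15213 genes with a mean of at least 1 CPM are given: 9.51% were higher and 12.5% lower. Both untreated SCNT groups had donor nuclei and no mRNA, and the pair of SCNT-L-cont libraries differed among themselves: without its replicate 1, 59.1% of the raised genes were higher in IVF, and without its replicate 2, 34.3%. For the lowered genes, 36.9% and 40.7% were lower in IVF.

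A few genes were called on the opposite side. Genes without a call for IVF against SCNT-L-cont are not among them. Some of those also ended outside the IVF range with Kdm4d mRNA, though a control library lay within it. Hspa8 and Gja1 ended above that range, and Hdac2, Atp1b1 and Myl3 below it. The number of such genes was not counted. Ankmy2 and the long noncoding RNA BC002059 were raised, and IVF was below SCNT-L-cont for both. Ankmy2 was at 51.5 and 79.5 CPM in controls, 131 and 172 CPM with Kdm4d mRNA and 28.3 to 44 CPM in IVF. The 7 lowered genes with IVF above SCNT-L-cont were Gm48578, Gm5039, Zfp503, Mov10l1, Trim36, Pmaip1 and Epha5. Mov10l1, a helicase of the piRNA pathway, was at 2.32 and 3.83 CPM in controls, 0.0807 and 0.351 CPM with Kdm4d mRNA and 25.8 to 38.3 CPM in IVF, a log2 fold change of -3.74 ± 0.96 (adjusted p = 0.0216). Pmaip1, which encodes the death-promoting protein NOXA, was at 3.39 and 5.66 CPM in controls, 0.484 and 0.281 CPM with Kdm4d mRNA and 44.6 to 63.6 CPM in IVF. For these genes the injected embryos lay farther from IVF than the controls did. None of the 9 kept its call without SCNT-cont replicate 1, with log2 fold changes of -4.06 for Mov10l1, -3.89 for Pmaip1 and 0.91 for Ankmy2.

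Among regulators of early development, 3 of 24 (12.5%) were raised and 1 (4.17%) was lowered, against 2.11% and 1.04% of all genes tested. The median log2 fold change was 0.42. Tfap2c, a factor of the trophoblast and the two-cell embryo, was at 11.9 and 2.07 CPM in controls, 21.9 and 21 CPM with Kdm4d mRNA and 44.1 to 56.5 CPM in IVF. It kept its call without SCNT-cont replicate 1, where the log2 fold change was 3.35 in place of 1.64. Sall4 and Klf5, both of which maintain pluripotent cells, rose with log2 fold changes of 1.3 and 1.07 to levels below every IVF library, and lost their calls without SCNT-cont replicate 1 (0.91 and 1.01). Hes1, a repressor downstream of Notch, was lowered from 26.1 and 20 CPM to 5.57 and 5.33 CPM, within the 2.64 to 8.56 CPM of IVF. Its log2 fold change was -2.08 ± 0.4 (adjusted p = 0.00322), and -1.89 without SCNT-cont replicate 1 (adjusted p = 0.0551).

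Chromatin genes changed in small numbers. Of 18 writers and readers of H3K9 methylation, Atf7ip2 and Setdb2 (11.1%) were raised and 0 were lowered. Atf7ip2, a partner of the H3K9 methyltransferase SETDB1, was at 89.4 and 61.4 CPM in controls, 327 and 318 CPM with Kdm4d mRNA and 329 to 371 CPM in IVF, a log2 fold change of 2.1 ± 0.23 (adjusted p = 1.17e-05). The injected libraries lay just under the IVF range, and the value without SCNT-cont replicate 1 was 2.38 (adjusted p = 0.000205). Setdb2, a SET domain protein of the same family, was at 40.7 and 65.2 CPM in controls and 103 and 111 CPM with Kdm4d mRNA, and its call was lost without SCNT-cont replicate 1 (log2 fold change 0.7). Of 62 other chromatin regulators 1 (1.61%) was raised, the histone deacetylase Hdac1, and 2 (3.23%) were lowered, among them its paralogue Hdac2. The shares of all genes tested were 2.11% raised and 1.04% lowered. Hdac1 was at 134 and 232 CPM in controls and 358 and 434 CPM with Kdm4d mRNA. Hdac2 was at 96.8 and 81.8 CPM in controls and 46.2 and 36.5 CPM with Kdm4d mRNA, below the 64.3 to 92.9 CPM of IVF. With SCNT-cont replicate 1 left out, Hdac1 had a log2 fold change of 0.76 and Hdac2 one of -1, and neither was called.

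Sfmbt2, a Polycomb-related gene whose maternal allele is silenced by H3K27me3 in fertilized embryos, was lowered. It was at 67.5 and 26.2 CPM in controls, 9.2 and 9.75 CPM with Kdm4d mRNA and 3.89 to 4.96 CPM in IVF, a log2 fold change of -2.3 ± 0.48 (adjusted p = 0.00525). The injected libraries lay between the controls and IVF. Sfmbt2 had -1.48 (adjusted p = 0.215) when SCNT-cont replicate 1 was left out. Of the 4 other genes tested that are imprinted in this way, Slc38a4 was at 11.5 and 17.3 CPM in controls and 6.7 and 7.22 CPM with Kdm4d mRNA, above the 1.99 to 4.32 CPM of IVF, and was not called (log2 fold change -1.05, adjusted p = 0.175). Jade1, Gab1 and Smoc1 had log2 fold changes of -0.63, -0.02 and 0.08. Of 35 genes with canonical imprints, Ube3a and Usp29 (5.71%) were raised and Rian (2.86%) was lowered, against 2.11% and 1.04% of all genes tested. Ube3a, a ubiquitin ligase, was at 66.6 and 65.8 CPM in controls and 133 and 173 CPM with Kdm4d mRNA, and kept its call without SCNT-cont replicate 1 (log2 fold change 1.2). Usp29 (adjusted p = 0.104) and Rian (adjusted p = 0.109) did not.

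The 10 lowered genes with the largest change that met the naming rule had low counts. Among them, Epor, the erythropoietin receptor, Fmo5, Pde7b and Hpcal4 had 0 reads in both injected libraries. Epor was at 2.52 and 1.51 CPM in controls, at least 8.92-fold higher than injected embryos set at 3 reads per library, and at 0 to 0.454 CPM in IVF. Plet1, a surface protein of placental progenitors, was at 3.78 and 17.6 CPM in controls, 0.242 and 0.491 CPM with Kdm4d mRNA and at most 0.31 CPM in IVF. Its log2 fold change was -4.82 ± 0.99 (adjusted p = 0.0048), and -5.55 without SCNT-cont replicate 1 (adjusted p = 0.00976). Clic6, a chloride channel protein, went from 9.2 and 5.74 CPM to 0.403 and 0 CPM. Myl3, a cardiac myosin light chain, went from 6.49 and 9.89 CPM to 0.484 and 0 CPM, where IVF held 4.5 to 6.76 CPM, so that the injected embryos lay below both. Cd274, Slfn8 and Adam32 had 1 read in the injected libraries together and ratios of 65.3, 50.1 and 38.5, with exact 95% counting intervals of 11.3 to 2624, 8.53 to 2025 and 6.44 to 1565. Plet1 was the single gene of these 10 that kept its call without SCNT-cont replicate 1, the others having adjusted p of 0.084 to 0.237, and Plet1 lost its call without SCNT-cont replicate 2 (adjusted p = 0.0612).

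Of the 6 abundant lowered genes chosen by the naming rule, 3 stood between the controls and IVF, namely Slc38a2, Gsta4 and Nupr1. Slc38a2, an amino acid transporter, was at 135 and 149.5 CPM in controls, 34.8 and 46.7 CPM with Kdm4d mRNA and 12.7 to 32.7 CPM in IVF, a log2 fold change of -1.81 ± 0.43 (adjusted p = 0.0138). Gsta4, a glutathione transferase, was at 125 and 120.3 CPM in controls, 48.6 and 56.7 CPM with Kdm4d mRNA and 11.2 to 14.7 CPM in IVF. Nupr1, a stress-induced chromatin protein, was at 172 and 209 CPM in controls, 50.5 and 96.6 CPM with Kdm4d mRNA and 9.39 to 11.2 CPM in IVF. In each of these 3 genes every injected library lay below both controls and above every IVF library. Sycp3, of the meiotic synaptonemal complex, and Tmsb10, an actin-binding peptide, were lowered with log2 fold changes of -1.31 and -1.05, and in the injected embryos Sycp3 lay below its IVF range of 190.3 to 268 CPM and Tmsb10 within the 71 to 112 CPM of IVF. Zfp352, described above, also lay below IVF. Gsta4 kept its call without SCNT-cont replicate 1 (-1.21, adjusted p = 0.026), and Slc38a2, Nupr1, Sycp3 and Tmsb10 had -1.89, -1.52, -1.46 and -0.95 without a call.

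Cell cycle genes changed in both directions. Of 44 tested 3 (6.82%) were raised and 4 (9.09%) were lowered, against 2.11% and 1.04% of all genes tested. The median log2 fold change was 0.25, or 0.17 with genes absent from a group set at their bound. The D-type cyclins and their kinase, which drive somatic cells from G1 into S phase, were among the lowered. Ccnd2 was at 16.4 and 31.7 CPM in controls, 1.61 and 3.01 CPM with Kdm4d mRNA and 0.808 to 2.85 CPM in IVF, a log2 fold change of -3.37 ± 0.67 (adjusted p = 0.00386), and -3.78 without SCNT-cont replicate 1 (adjusted p = 0.0184). Ccnd3 and Cdk6 were lowered with log2 fold changes of -1.24 and -1.87, and were not called without that library. Aurkc, the Aurora kinase of the egg, was raised from 25.2 and 20.8 CPM to 62.5 and 52.2 CPM, with IVF at 58.5 to 79.3 CPM, and missed the call without that library (log2 fold change 1.45).

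Stress, signalling and metabolic lists held at most 2 calls in either direction, where 2.11% of all genes were raised and 1.04% lowered. Of 25 genes of the integrated stress and unfolded protein responses 0 were raised and 2 were lowered, Nupr1 and Herpud1, the latter from 5.33 and 6.62 CPM to 0.242 and 0.701 CPM. Of 87 kinase signalling genes 1 was raised, Spry2, and 1 was lowered, Map4k4, with a median log2 fold change of -0.21. Of 43 genes of autophagy and the lysosome 2 were raised, the protease gene Ctsb and Atg13, and 2 were lowered, Ctsd and Atg16l2. Ctsd was at 60.9 and 52.5 CPM in controls, 23.1 and 26.2 CPM with Kdm4d mRNA and 6.61 to 10.6 CPM in IVF. Of 26 genes of lipid synthesis Fdft1 and Hmgcs1, both of the sterol pathway, were raised, and of 21 p53 targets Pmaip1 was lowered. DNA replication had Rrm2 raised of 51, nuclear oxidative phosphorylation had Ndufs6 lowered of 73, and glycolysis had Pgam1 raised of 19. Every gene named so far in these lists lost its call when SCNT-cont replicate 1 was left out. Ubiquitin ligases and conjugating enzymes had Ube3a and Ube2h raised of 79, and without that library Ube3a alone was called.

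Chemosensory receptor families were called at about the share of all genes. Of 196 olfactory receptor genes 4 (2.04%) were raised and 0 lowered, and of 93 vomeronasal receptor genes 2 (2.15%) were raised and 1 lowered, against 2.11% and 1.04% of all genes tested. No olfactory receptor gene kept a call without SCNT-cont replicate 1. Of 11 Prame family genes 1 (9.09%) was raised. Vmn1r210 was at 5.42 and 2.39 CPM in controls, 24.2 and 18.9 CPM with Kdm4d mRNA and 23.3 to 28.7 CPM in IVF, a log2 fold change of 2.47 ± 0.39 (adjusted p = 0.000521). Vmn2r12 was lowered from 26.1 and 30.5 CPM to 5.41 and 3.44 CPM, with IVF at 3.28 to 5.66 CPM. Both kept their calls without SCNT-cont replicate 1. Pramef6 went from 2.03 and 5.5 CPM to 16.1 and 14.3 CPM and lost its call there (log2 fold change 1.45). The protocadherin gene Pcdhb17 was lowered from 6 and 0.239 CPM to 0.323 and 0 CPM, and without SCNT-cont replicate 1 its log2 fold change was -0.62. Of 7243 numbered gene models (Gm), 94 were raised and 29 lowered, or 1.3% and 0.4%, below the shares of all genes tested.

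Unprocessed pseudogenes, which are copies made by duplication, were among the raised genes. Of 344 tested, 19 (5.52%) were raised, against 2.74% of 16234 protein-coding genes, 1.12% of 2149 lincRNA genes and 1.08% of 2678 processed pseudogenes. Some raised genes were neighbours. The next tested gene on the chromosome was raised too for 47 of the 543 (8.66%), where 2.11% of all genes were raised. The next gene was lowered too for 4 of the 268 lowered genes (1.49%), where 1.04% of all were lowered. Runs of at least 3 consecutive raised genes stood at 5 places, and 0 such runs of lowered genes were found.

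Beside the Usp17-like stretch, these were D5Ertd577e, Gm3286 and E330014E10Rik on chr5, Obox3-ps1, Obox3-ps2 and Gtpbp4-ps2 on chr7, Gm33378, Gm8170 and Zfp873 on chr10, and Pbk, Esco2 and Ccdc25 on chr14. E330014E10Rik was at 15.9 and 23.3 CPM in controls, 73.2 and 83.5 CPM with Kdm4d mRNA and 68.4 to 74.6 CPM in IVF. Obox3-ps2 was at 21.1 and 34.1 CPM in controls, 159.7 and 194 CPM with Kdm4d mRNA and 236 to 351 CPM in IVF. The chr14 genes, which serve mitosis and sister chromatid cohesion in the case of Pbk and Esco2, rose by log2 fold changes of 1.1 to 1.3. The chr5 and Obox runs consist of related copies, whose reads can be split or shared by the counting. Without SCNT-cont replicate 1, Gm3286, E330014E10Rik, Obox3-ps1, Gtpbp4-ps2, Gm33378 and Ccdc25 kept their calls.

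Markers of other cells were examined because donor cumulus cells, and other cells of the oviduct or blood, could add RNA. The 8 defining cumulus markers summed to 32.7 and 33.4 CPM in controls and 37.7 and 39.3 CPM with Kdm4d mRNA, and most of this was Amhr2, at 29.8 to 36.5 CPM. Foxl2 was at 0 in all 4 libraries, and Inha, Fshr, Cyp11a1 and Has2 were under 0.5 CPM. Star was at 0.387 and 2.55 CPM in controls and 1.05 and 3.86 CPM with Kdm4d mRNA. Ptx3 was at 1.065 and 0 CPM in controls and 0.0807 and 0 CPM with Kdm4d mRNA. In a longer list of 30 tested cumulus and granulosa genes 1 (3.33%) was raised, Gja1, and 0 were lowered. The shares of all genes tested were 2.11% and 1.04%. The list had a median log2 fold change of -1.1, or -0.88 with genes absent from a group set at their bound. This median was -0.06 without SCNT-cont replicate 2 and -2.85 without SCNT-Kdm4d replicate 2, and DESeq2 called 1 raised and 3 lowered. Gja1, a gap junction protein that embryos also make, was at 79.2 and 97.7 CPM in controls and 194 and 234 CPM with Kdm4d mRNA, against 79.2 to 94.6 CPM in IVF, and was not called without SCNT-cont replicate 1 (adjusted p = 0.0849). Of 14 fibroblast and muscle genes Anxa2 was lowered, and of 8 leukocyte genes 0 were called by edgeR or, upward, by DESeq2, which called 1 lowered. An unadjusted p under 0.05 was reached by 1 of the 8. Hba-a1, a haemoglobin gene, had a log2 fold change of -1.36 (adjusted p = 0.0731), and Cd68, a macrophage protein, one of 1.13 (adjusted p = 0.298). The 4 defining leukocyte markers summed to 5.81 and 3.59 CPM in controls and 9.36 and 6.17 CPM with Kdm4d mRNA, and the part of this RNA in the results was not tested. Col3a1 and Lum, of fibroblasts, were at 0 in all 4 libraries. Pdgfra was at 6.97 and 5.18 CPM in controls and 2.66 and 1.54 CPM with Kdm4d mRNA. Col1a1 was at 0.194 and 0.319 CPM in controls and 0.403 and 0.14 CPM with Kdm4d mRNA.

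Genes of the trophectoderm and epithelia had a median log2 fold change of -0.98 over 21 tested. Aqp3 and Atp1b1 (9.52%) were lowered and 0 were raised, against 1.04% and 2.11% of all genes tested. Aqp3, a water and glycerol channel, was at 17.4 and 11.1 CPM in controls, 2.9 and 2.6 CPM with Kdm4d mRNA and 0.843 to 1.24 CPM in IVF. Atp1b1, a subunit of the sodium pump, was at 28.5 and 21.4 CPM in controls and 15 and 8.91 CPM with Kdm4d mRNA, below the 23.1 to 32.6 CPM of IVF. The median of the list was -0.51 without SCNT-cont replicate 1, Aqp3 and Atp1b1 had log2 fold changes of -2.02 and -0.86, and neither was called. Of 66 germline and meiosis genes, Cstf2t (1.52%) was raised and Sycp3 and Mov10l1 (3.03%) were lowered. Of 34 genes of the actin cytoskeleton and its serum response, Junb (2.94%) was lowered, with 0 reads in both injected libraries. Junb was at 1.26 and 0.718 CPM in controls, at least 4.37-fold higher than the injected libraries set at 3 reads each. These 4 genes lost their calls when SCNT-cont replicate 1 was left out, with adjusted p of 0.213 for Cstf2t, 0.101 for Sycp3, 0.0758 for Mov10l1 and 0.2 for Junb.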

How the data were processed

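RNA from pools of embryos was made into polyA-primed libraries (SMART-Seq HT) and sequenced in pairs. Per the labels and the methods, the authors trimmed reads with Trimmomatic, aligned them with STAR to mm10, kept unique alignments, and deposited raw counts per gene from featureCounts 1.6.2, run as unstranded. Pairs falling on several features at once were dropped, so overlapping genes, antisense genes and near-identical copies have uncertain counts. The deposited table also held 1755056 rows of transposable element copies, which were not used. Gene symbols came from GENCODE M21 for 55134 of 55375 gene rows.

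Groups came from the labels. Autosomal genes averaging 1 read or more were tested (25794 genes), and their counts in all 25 libraries were fitted with 1 term for each of 11 groups by the quasi-likelihood test of edgeR 4.0.16 (R 4.3.3) with TMM factors and Benjamini-Hochberg adjustment. Total counts were 9136103 and 11878059 for SCNT-cont, 13638295 and 15849137 for SCNT-Kdm4d, 6662727 to 16791202 for IVF, and 16604899 and 9259726 for SCNT-L-cont. The contrasts were SCNT-Kdm4d minus SCNT-cont, IVF minus SCNT-L-cont (which shares no library with the first), and, for a few genes, SCNT-Kdm4d minus IVF. Standard errors are the absolute log2 fold change over the square root of F. The fit was tested on simulated data.

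Named genes were, in each direction, the 10 with the largest change and the 6 most abundant among called genes with at least 10 reads in every library of the higher group, no overlap, and no Gm or Rik name, plus up to 4 called members of each gene list. A few genes that met this rule are not reported here. Genes outside this rule were named to complete counts or as markers. The comparison, members and lists were chosen with earlier results of these data known. A group at 0 was set at 3 reads per library for a bound. Ratios with 1 to 3 reads carry exact 95% intervals, which cover counting error only. Promoters were those of RefSeq on GRCm38.p6. Tables were made with Python 3.11.15, pandas 2.3.3 and scipy 1.17.1. Alternatives were DESeq2 1.42.0, RLE factors, other count filters, sex chromosomes included, other reference groups, a replicate block, the 2 groups alone, Kdm4d left out of library sizes, and each library left out in turn.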

Additional observations from a re-analysis of the deposited data

Results flagged for a closer look

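Among 134 named genes, 12 had 1 of the 4 IVF libraries far from the other 3, by a gap over the whole range above the 95% critical value of Dixon. Chance gives about 1 in 20 groups. In IVF replicate 4, Hpcal4 was at 1.6 CPM, Pmaip1 at 63.6 CPM, Herpud1 at 1.74 CPM, Junb at 0.418 CPM and D5Ertd577e at 82.1 CPM. In IVF replicate 2, Slfn8 was at 2.74 CPM, Snrpa1 at 190.6 CPM, Ube2h at 140.5 CPM, Olfr665 at 7.65 CPM and Pramef6 at 17 CPM. In IVF replicate 3 Cd274 was at 0.908 CPM, and in IVF replicate 1 Myl3 was at 4.5 CPM. These libraries are outside the contrast of SCNT-Kdm4d with SCNT-cont, though within the common fit.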

How the results depend on the processing

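The number of called genes depended on single libraries. Leaving out each of the 4 libraries in turn gave 98 to 912 raised and 43 to 280 lowered genes, the lowest of each without SCNT-cont replicate 1 and the highest without SCNT-cont replicate 2, against 543 and 268 with all. The cause was not tested. The raised count stayed within 1.5 times under all other alternatives, but the lowered count was 411 with SCNT-L-cont as the reference, 444 with both untreated SCNT groups as the reference, 472 with no filter on low counts, 430 with the 2 groups alone and 605 with DESeq2. The share of raised genes among calls was 54.3% with the 2 groups alone and 47.2% with DESeq2. For IVF against SCNT-L-cont, leaving out 1 library gave 1123 to 2091 higher and 1643 to 2213 lower genes.

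Of 128 named called genes, 26 kept the call without SCNT-cont replicate 1, 96 without SCNT-cont replicate 2, 65 without SCNT-Kdm4d replicate 1 and 48 without SCNT-Kdm4d replicate 2, and none of them changed sign in these 4 fits. The kept sign is nearly fixed by the selection, because the control and injected libraries hardly overlapped for called genes. With SCNT-L-cont as the reference 79 of the 128 kept the call, and Olfr665 reversed to a log2 fold change of -0.47. Among genes without a call, Serpine2 ranged from -1.17 to 0.01 without an injected library, Krtap28-13 from -6.71 to 2.31 over the libraries left out, and Obox6 against IVF from -0.02 to 0.19.

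Whether the replicate numbers pair the samples cannot be told from these counts. The deviations of same-numbered SCNT-Kdm4d and SCNT-cont libraries correlated at 0.0143 over 25794 genes, with 2 pairs. This rests on a single difference between replicates in each group, so it cannot decide the question. With the replicate block, 469 genes were raised and 189 lowered, and IVF against SCNT-L-cont gave 1262 and 1613. With 2 pools a group, genes of a few reads in both groups cannot show a difference at this depth.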

Other observations

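The X chromosome was left out of the comparison above because IVF pools held both sexes. With sex chromosomes included, 35 of 1010 X-linked genes (3.47%) were raised and 10 (0.99%) were lowered, with a median log2 fold change of 0.08. Of all 26817 genes in that fit, 576 were raised and 276 lowered. That fit was not repeated with a library left out, so the X-linked calls lack this check. Xist, the RNA that silences an X chromosome, was at 87.4 and 43.2 CPM in controls and 20.3 and 18 CPM with Kdm4d mRNA, a log2 fold change of -1.77 ± 0.45 (adjusted p = 0.0204, edgeR). The IVF libraries, which are of mixed sex and so not matched for X-linked genes, held 0.349 to 1.24 CPM. Sat1, an enzyme of polyamine breakdown, was at 904 and 1173 CPM in controls and 2865 and 3193 CPM with Kdm4d mRNA, against 759.5 to 1048.5 CPM in IVF. Rhox5, a homeobox gene of the reproductive tract, had 17 and 42 reads in controls and 0 in both injected libraries. Gpr50 had 0 reads in both controls, 36 and 5 reads with Kdm4d mRNA, and 46.6 to 74.4 CPM in IVF. Prps1, of nucleotide synthesis, Rbbp7, a histone-binding protein, and Gla, a lysosomal enzyme, were raised with log2 fold changes of 1.35, 1.15 and 1.59.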
